A study of Mus musculus with 15 samples.

Results

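The genes described here are 9 transcription factors that set and hold hepatocyte identity, Hnf4a, Foxa1, Foxa2, Foxa3, Cebpa, Cebpb, Onecut1, Prox1 and Nr5a2. They were found by symbol among the 55984 genes of the deposited counts, and all 9 were among the 17488 genes that passed the filter on low counts. RNA was sequenced from hepatocytes of wild-type adult male C57BL/6JJcl mice, which received no treatment other than the isolation of their cells, and were sorted by their Hoechst fluorescence, a measure of DNA content. Diploid cells gave the 2n-whole population and tetraploid cells the 4n-whole population, each with 4 libraries. Tetraploid cells with a lower peak of Hoechst signal, enriched for binucleated cells, gave 4n-bottom with 4 libraries. Those with a higher peak, enriched for mononucleated cells, gave 4n-top with 3 libraries. Neither of these gates is pure, and 4n-whole holds both kinds of cell. The same 4 mice gave every population, except that no 4n-top library of mouse 1 was used. The study left that sample out because its RNA quality was poor.

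HNF4A is a nuclear receptor that holds many liver genes active, among them those for apolipoproteins and clotting factors. FOXA1, FOXA2 and FOXA3 are pioneer factors, able to bind their sites in closed chromatin. C/EBPα and C/EBPβ are leucine zipper factors of the same family, the former tied to the quiescent, metabolic state of hepatocytes and the latter to the acute phase response and regeneration. ONECUT1, also named HNF6, PROX1 and the nuclear receptor NR5A2, also named LRH-1, complete the group, with roles in liver development, in holding back other cell fates and in bile acid synthesis. These factors bind the promoters of each other's genes and of their own, and in this way form the network by which a hepatocyte keeps its identity.

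The promoters of the members are shown where they hold a motif of a member. RefSeq (GRCm38.p6) gave 14 start sites for the 9 genes, and the 250 bases before each were searched on both strands for CAAAGTCCA (HNF4A), TGTTTAC (FOXA), TTNNGCAA (C/EBP), ATTGATT (ONECUT1) and CAAGGTCA (NR5A2). The matches did not overlap each other. The 4 windows with a match are printed 5′ to 3′ in the direction of transcription, with the match in capitals.
Hnf4a, upstream start site, plus strand, chr2:163506607-163506856: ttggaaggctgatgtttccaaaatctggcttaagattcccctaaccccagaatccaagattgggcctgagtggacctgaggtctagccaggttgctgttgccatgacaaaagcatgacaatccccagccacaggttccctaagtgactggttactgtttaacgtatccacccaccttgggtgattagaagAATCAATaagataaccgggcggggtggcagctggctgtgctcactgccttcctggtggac
Foxa2, upstream start site, minus strand, chr2:148046970-148047219: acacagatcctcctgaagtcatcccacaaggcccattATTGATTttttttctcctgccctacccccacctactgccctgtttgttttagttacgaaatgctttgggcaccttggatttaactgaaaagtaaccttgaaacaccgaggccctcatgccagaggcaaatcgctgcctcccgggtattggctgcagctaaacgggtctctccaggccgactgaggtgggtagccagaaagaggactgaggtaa
Foxa1, minus strand, chr12:57546112-57546361: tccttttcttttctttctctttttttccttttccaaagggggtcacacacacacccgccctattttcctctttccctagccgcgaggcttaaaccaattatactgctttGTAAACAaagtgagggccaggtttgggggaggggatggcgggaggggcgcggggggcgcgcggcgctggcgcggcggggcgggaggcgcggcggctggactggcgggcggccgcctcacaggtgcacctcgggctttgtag
Nr5a2, downstream start site, minus strand, chr1:136953631-136953880: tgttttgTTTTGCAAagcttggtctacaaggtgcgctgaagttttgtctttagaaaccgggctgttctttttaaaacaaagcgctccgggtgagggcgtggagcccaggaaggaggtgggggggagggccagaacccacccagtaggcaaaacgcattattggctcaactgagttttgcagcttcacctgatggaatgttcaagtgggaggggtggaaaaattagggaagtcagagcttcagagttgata
The ONECUT1 motif lay in the windows of Hnf4a (positions -60 to -54 from the start, on the opposite strand) and Foxa2 (-213 to -207). The FOXA motif lay in that of Foxa1 (-141 to -135, opposite strand), and the C/EBP motif in that of Nr5a2 (-243 to -236). Among all 32851 windows of this length in the same table, the ONECUT1 motif occurred in 2.61%, the FOXA motif in 3.17% and the C/EBP motif in 9.56%. The HNF4A and NR5A2 motifs, found in 0.384% and 1.33% of all windows, matched none of the 14. A match is a run of letters and does not show that a factor is bound there.

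Expression is given as CPM, counts scaled to a common library total by the TMM method, and is therefore relative to the other RNA in a library. RNA content per cell was not measured, and in these bulk samples fewer expressing cells and less RNA per cell cannot be told apart. Total counts ranged from 22049498 to 42096421 per library, so that 3 counts stood for 0.0693 to 0.120 CPM, a limit that covers counting error only. The lowest count of any member was 238, so counting error was small for all of them. The 10 hepatocyte markers summed to between 93218 and 122430 CPM in every library. Marker lists of other cells were far lower, with sums of at most 37.4 CPM for endothelial cells, 9.31 for Kupffer cells, 7.30 for stellate cells and 1.18 for lymphocytes. The 8 biliary markers summed to 55.3 to 68.3 CPM in 2n-whole and 28.6 to 56.2 CPM in the 4n populations, and 5 of them, Krt19, Krt7, Epcam, Cftr and Tspan8, were at 0 in every 4n-top library. The smallest library was 4n-whole of mouse 2.

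To compare the members with each other, CPM was divided by the length of each gene's exons (GENCODE M39, GRCm39). Cebpa was the highest at a mean of 145 CPM per kb over the 15 libraries (102 to 222), followed by Hnf4a at 113 CPM per kb (76.6 to 167), and Cebpa was above Hnf4a in 14 of 15 libraries. Cebpb followed at 34.03, Prox1 at 19.9 and Foxa3 at 13.4 CPM per kb. Nr5a2 (9.14), Foxa2 (8.46), Foxa1 (7.17) and Onecut1 (5.24 CPM per kb) were the lowest. Nr5a2 and Foxa2 could not be ordered, since Nr5a2 was higher in 8 of 15 libraries. Foxa2 exceeded Foxa1, and Foxa1 exceeded Onecut1, in 12 of 15 libraries each. Among all tested genes these levels stood between the percentiles 80.3 (Onecut1) and 99.0 (Cebpa). The order used all annotated exons, and which isoforms the cells used is not known from these counts. The exon length of Onecut1, 5804 bases, includes 2171 shared with Gm20649 on the same strand. How reads in shared bases were counted is not given in the sources used here, so the last place of Onecut1 is uncertain.

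The first question was whether any member differed between diploid and tetraploid hepatocytes, or between the tetraploid populations. Each comparison was tested with edgeR's quasi-likelihood test over all tested genes, with the mouse as a block, and a gene was named a DEG where the adjusted p was below 0.05 and the log2 fold change beyond 0.5 in either direction. None of the 9 members was a DEG in any of the 4 comparisons. Of all tested genes, 3.47% were DEGs in 4n-whole against 2n-whole, 0.463% in 4n-bottom against 2n-whole, 0.961% in 4n-top against 2n-whole and 0.0114% in 4n-top against 4n-bottom. Of the 607 DEGs in 4n-whole against 2n-whole 305 were higher, and 1334 of 1509 with the library totals in place of TMM. DESeq2 with the mouse as a block, and DESeq2 after ComBat-seq, also called 0 members in each comparison. Over all genes, the former called 814, 143, 329 and 49 of 17488 in these comparisons, in the same order. The latter, with no filter on low counts, called 1160, 275, 538 and 18 of 39304. With edgeR, an unadjusted p under 0.05 was found in these comparisons for 2, 1, 4 and 0 members, in the same order. The counts over all 17488 tested genes were 3570, 1777, 1977 and 488. On the adjusted p alone, 1 member passed, Cebpa in 4n-whole against 2n-whole, where 5.47% of all genes did. In the other comparisons 0 members passed on that measure, against 0.492%, 1.06% and 0.0114% of all genes. In a test of all 4 populations together 0 members passed, against 1.95% of all genes. An unadjusted p under 0.05 was found there for 3 members, and for 2265 of the 17488 genes. DESeq2 called 1 member in that test, again Cebpa, and 644 of the 17488 genes.

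The libraries of the compared populations overlapped for all 9 members in all 4 comparisons, a measure that does not pair the mice. Among all tested genes, the libraries did not overlap for 5.8% in 4n-whole against 2n-whole, 3.52% in 4n-bottom against 2n-whole, 9.21% in 4n-top against 2n-whole and 3.15% in 4n-top against 4n-bottom. The median absolute log2 fold change of the members was 0.14, 0.13, 0.19 and 0.07 in these comparisons, in the same order. For all tested genes it was 0.30, 0.22, 0.25 and 0.17. The members stood at percentile 75.1 of mean CPM (Foxa1) or higher among the tested genes, so these medians were not matched for level.

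**Figure D1:**
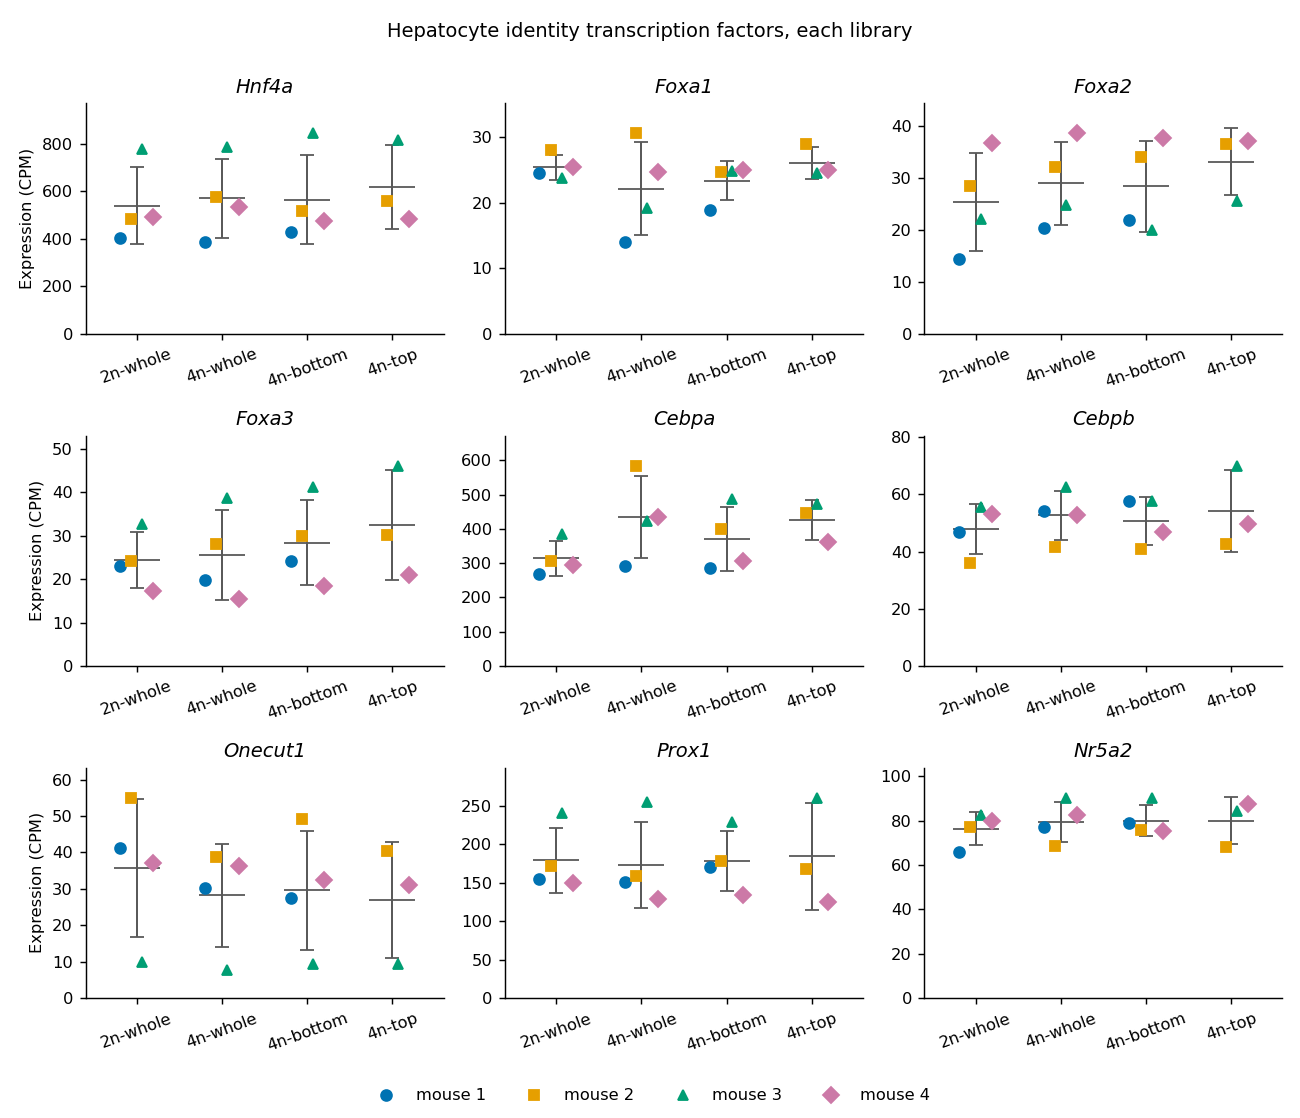
Expression of the 9 members in CPM (vertical axes, from 0) in the 15 libraries by population. Symbols mark the 4 mice, and the bar and whiskers give the mean ± SD of a population (n = 4, and n = 3 for 4n-top). The populations overlap for every gene, and mouse 3 is the lowest in each population for Onecut1, at 7.75 to 9.81 CPM.

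Cebpa (chr7:34818718-34821353, plus strand, GRCm39), which encodes C/EBPα, differed most. In 2n-whole it was expressed at 269, 307, 386 and 295 CPM in mice 1 to 4, and in 4n-whole at 292, 585, 424 and 436 CPM. In 4n-bottom the values were 285, 400.1, 489 and 306 CPM, and in 4n-top 445, 472 and 362 CPM in mice 2, 3 and 4. Each mouse had its lowest value in 2n-whole, and the 3 libraries of mouse 1 lay close together, between 269 and 292 CPM. The diploid mean was 314 ± 50.3 CPM (SD, n = 4), and that of 4n-whole was 434 ± 119.8 CPM (SD, n = 4). The log2 fold change was 0.45 (standard error 0.11, 95% CI 0.22 to 0.67, adjusted p = 0.0142, edgeR), a fold change of 1.36, higher in 4 of 4 mice. It thus passed the threshold on p and fell short of that on the fold change. Against 2n-whole, the log2 fold change was 0.21 in 4n-bottom (-0.01 to 0.43, adjusted p = 0.514), higher in 4 of 4 mice, and 0.32 in 4n-top (0.07 to 0.56, adjusted p = 0.271), higher in 3 of 3 mice. Between 4n-top and 4n-bottom it was 0.10 (-0.14 to 0.35, adjusted p = 1). Gm45091, on the opposite strand, shares 51 exon bases with Cebpa and had at most 0.429% of its counts.

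The size of the Cebpa difference moved with the animals and settings used. In the 13 alternatives the log2 fold change between 4n-whole and 2n-whole stayed positive, from 0.25 to 0.66, and the adjusted p was under 0.05 in 8 of them (range 3.9e-05 to 0.367). Without mouse 2 it was 0.28 (adjusted p = 0.187) and without mouse 4 it was 0.40 (adjusted p = 0.129). Without mouse 1 or mouse 3 it rose to 0.55 (adjusted p = 0.0098) and 0.54 (adjusted p = 0.0016), and Cebpa was then a DEG. Leaving out only the 4n-whole library of mouse 2 gave 0.32 (adjusted p = 0.0758). Without the mouse in the model the adjusted p was 0.367, and with only the libraries of these 2 populations it was 0.107. The longest Cebpa transcript has a GC content of 62.6%, above 99.2% of the tested genes. With GC content and length corrected for together, which does not separate them, the log2 fold change was 0.25 (adjusted p = 0.0472). With the library totals in place of TMM, the median of all genes moved by 0.20, and Cebpa stood at 0.66 (adjusted p = 0.0012).

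**Figure D2:**
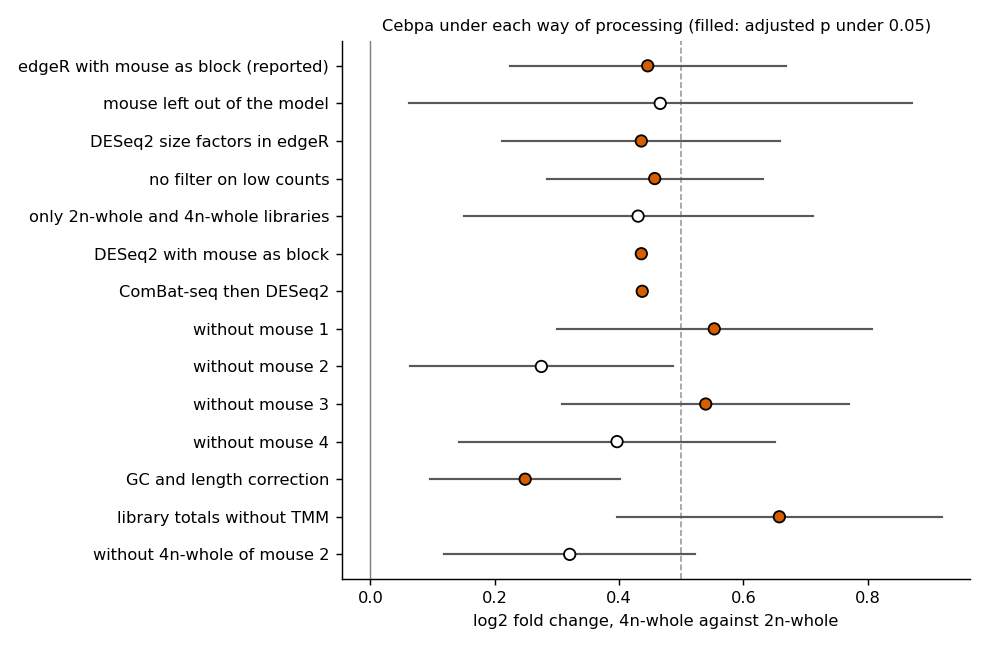
Log2 fold change of Cebpa in 4n-whole against 2n-whole (horizontal axis) in the reported model and 13 alternatives (rows). Lines are 95% confidence intervals, drawn for edgeR only, filled points had an adjusted p under 0.05, and the dashed line is the limit of 0.5; the estimates lie between 0.25 and 0.66.

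Other markers moved between the same libraries. Of 12 pericentral markers, genes expressed around the central vein of the liver lobule, 11 were DEGs higher in 4n-whole than in 2n-whole, Glul, Cyp2e1 and Cyp1a2 among them, and the summed level of the list was 517 to 875 CPM in 2n-whole and 915 to 3110 CPM in 4n-whole. Of 12 periportal markers 3 were DEGs, Cyp2f2, Hsd17b13 and Mfsd2a, all lower in 4n-whole, with sums of 19442 to 23891 and 16678 to 21639 CPM. Genes that respond to tissue dissociation summed to 2245 to 3121 CPM in 2n-whole and 2616 to 4231 CPM in 4n-whole, and of 17 tested Hspa1b was a DEG higher and Klf6 a DEG lower. The TMM factors were 0.891 to 0.965 for 2n-whole and 0.992 to 1.13 for 4n-whole, mouse 2 having the highest. After the sort, the 2n and the 4n cells were also pelleted at different speeds, a step that cannot be told apart from ploidy. The part of lobular position, dissociation and RNA composition in the Cebpa difference was not tested.

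Cebpb (chr2:167530835-167532338, plus strand), the other C/EBP factor here, was expressed at 47.0, 36.1, 55.6 and 53.1 CPM in 2n-whole and at 54.2, 41.5, 62.4 and 52.8 CPM in 4n-whole. It stood at 57.6, 40.9, 57.5 and 46.8 CPM in 4n-bottom and at 42.6, 70.03 and 49.7 CPM in 4n-top. Mouse 2 had the lowest value in every population. The log2 fold change was 0.14 in 4n-whole against 2n-whole (95% CI -0.07 to 0.34, adjusted p = 0.495), and -0.07 after the correction for GC content and length. With the library totals it was 0.35 (adjusted p = 0.0226). Exons of Peds1 overlap those of Cebpb by 312 bases on the opposite strand, and the strand setting of the counting is not given in the sources used here. Peds1 had counts of 3.93% to 14.2% of those of Cebpb.

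The ratio of Cebpa to Cebpb counts, which sets the factor of quiescent hepatocytes against that of the acute phase, was compared within libraries and so does not depend on scaling. It was 5.73, 8.50, 6.93 and 5.56 in 2n-whole, 5.39, 14.1, 6.80 and 8.27 in 4n-whole, 4.95, 9.79, 8.49 and 6.54 in 4n-bottom and 10.45, 6.74 and 7.27 in 4n-top. Mouse 2 had the highest ratio in each population, and the populations overlapped. The mean log2 ratio was 2.72 ± 0.28 (SD, n = 4) in 2n-whole and 3.02 ± 0.59 (SD, n = 4) in 4n-whole. The difference of 0.30 had p = 0.543 in a two-sided exact permutation test (adjusted p = 0.657 over the 4 comparisons), and the ratio was higher in 2 of 4 mice. The differences were 0.13 for 4n-bottom against 2n-whole (exact permutation p = 0.657), 0.28 for 4n-top against 2n-whole (p = 0.286) and 0.15 for 4n-top against 4n-bottom (p = 0.629). These tests do not pair the mice, and 4n-top lacks mouse 1. Within mice, the mean difference was -0.03 for 4n-top against 4n-bottom, the opposite direction, and 0.22 for 4n-top against 2n-whole. The smallest p that 4 libraries against 4 allow in this two-sided test is 0.0286. With 3 against 4 the smallest possible p is larger. It lies above the threshold set on the adjusted p of genes, so the tests with 4n-top could not have passed that threshold.

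Hnf4a (chr2:163348728-163414830, plus strand) was expressed at 405, 485, 777 and 492.5 CPM in 2n-whole and at 386, 577, 784 and 533 CPM in 4n-whole. It stood at 427, 517, 843 and 474 CPM in 4n-bottom and at 558, 817 and 481 CPM in 4n-top. The populations nearly coincided, while mouse 3 was above and mouse 1 below all libraries of the other mice. The log2 fold change was 0.08 in 4n-whole against 2n-whole (95% CI -0.09 to 0.24, adjusted p = 0.662). With the library totals, which moved the median of all genes by 0.20, it was 0.29 (adjusted p = 0.0382). It was 0.06 in 4n-bottom against 2n-whole (-0.11 to 0.22), 0.07 in 4n-top against 2n-whole (-0.12 to 0.25) and 0.01 in 4n-top against 4n-bottom (-0.18 to 0.19). With TMM, none of the 4 intervals extended below -0.18 or above 0.25. Hnf4aos, on the opposite strand and with no shared exon bases, had counts of 1.74% to 3.56% of those of Hnf4a.

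**Figure D3:**
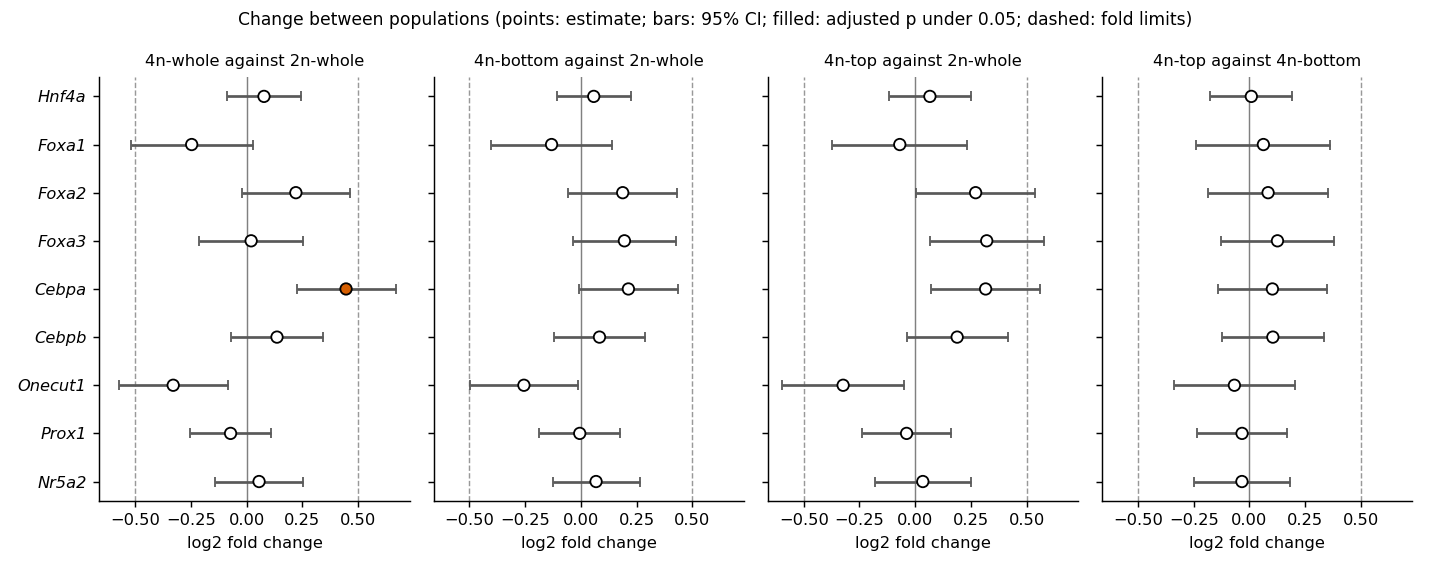
Log2 fold change of each member (horizontal axis) in the 4 comparisons (panels), with 95% confidence intervals from edgeR as bars. The filled point, Cebpa in 4n-whole against 2n-whole at 0.45, is the only one of the 36 with an adjusted p under 0.05, and dashed lines mark the limits of 0.5.

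Of the pioneer factors, Foxa1 (chr12:57587414-57593702, minus strand) was expressed at 24.45, 28.1, 23.7 and 25.4 CPM in 2n-whole and at 14.1, 30.5, 19.2 and 24.7 CPM in 4n-whole. It stood at 18.9, 24.6, 24.9 and 25.0 CPM in 4n-bottom and at 28.9, 24.5 and 24.9 CPM in 4n-top. The lowest values of 4n-whole and 4n-bottom were both in mouse 1. The log2 fold change was -0.25 in 4n-whole against 2n-whole (95% CI -0.52 to 0.03, adjusted p = 0.311), lower in 3 of 4 mice. It was -0.07 without mouse 1, and -0.38 (adjusted p = 0.0504) with the GC content and length corrected for.

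Foxa2 (chr2:147884797-147889005, minus strand) was expressed at 14.44, 28.5, 22.1 and 36.8 CPM in 2n-whole and at 20.3, 32.2, 24.9 and 38.7 CPM in 4n-whole. It stood at 21.95, 34.02, 20.1 and 37.7 CPM in 4n-bottom and at 36.7, 25.7 and 37.3 CPM in 4n-top. Mouse 4 was the highest in each population. Foxa2 was higher in 4n-whole than in 2n-whole in 4 of 4 mice, with a log2 fold change of 0.22 (95% CI -0.02 to 0.46, adjusted p = 0.307) that was 0.06 after the correction for GC content and length. With the library totals it was 0.43 (adjusted p = 0.0120). For 4n-top against 2n-whole it was 0.27 (0.00 to 0.54, unadjusted p = 0.0464, adjusted p = 0.431, edgeR), and 0.44 (adjusted p = 0.0488) with the library totals. The median of all genes in that comparison stood at 0.17 with the library totals.

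Foxa3 (chr7:18747209-18757471, minus strand), the FOXA gene with the highest level per length here, was expressed at 23.1, 24.3, 32.8 and 17.2 CPM in 2n-whole and at 19.8, 28.1, 38.7 and 15.36 CPM in 4n-whole. It stood at 24.1, 29.8, 41.3 and 18.4 CPM in 4n-bottom and at 30.1, 46.1 and 21.1 CPM in 4n-top. In each population mouse 3 was the highest and mouse 4 the lowest. The log2 fold change was 0.02 in 4n-whole against 2n-whole (95% CI -0.21 to 0.25, adjusted p = 0.948), 0.20 in 4n-bottom against 2n-whole (-0.04 to 0.43, adjusted p = 0.581), and 0.32 in 4n-top against 2n-whole (0.07 to 0.58, unadjusted p = 0.0159, adjusted p = 0.291, edgeR), the last in 3 of 3 mice. The last difference had an adjusted p under 0.05 in 2 of 13 alternatives, DESeq2 after ComBat-seq (0.31, adjusted p = 0.0363) and the library totals (0.49, adjusted p = 0.0420). With the library totals, the median of all genes in that comparison stood at 0.17.

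Onecut1 (chr9:74769118-74800594, plus strand) was the member whose libraries differed most. It was expressed at 41.3, 55.05, 9.81 and 37.15 CPM in 2n-whole and at 30.3, 38.8, 7.75 and 36.3 CPM in 4n-whole. It stood at 27.4, 49.1, 9.44 and 32.55 CPM in 4n-bottom and at 40.5, 9.30 and 31.1 CPM in 4n-top. The 4 libraries of mouse 3 lay between 7.75 and 9.81 CPM and the other 11 between 27.4 and 55.05 CPM, with no value in between. Within every mouse, 2n-whole had the highest value of the populations. The log2 fold change was -0.33 in 4n-whole against 2n-whole (95% CI -0.57 to -0.09, unadjusted p = 0.00999, adjusted p = 0.103, edgeR), lower in 4 of 4 mice. It was -0.26 in 4n-bottom against 2n-whole (-0.50 to -0.01, unadjusted p = 0.0406, adjusted p = 0.459, edgeR) and -0.32 in 4n-top against 2n-whole (-0.60 to -0.05, unadjusted p = 0.0228, adjusted p = 0.336, edgeR). Over the 13 alternatives the first of these stayed negative, from -0.44 to -0.12, and its adjusted p ran from 0.0326 (DESeq2 after ComBat-seq, the only one under 0.05) to 0.863 (no mouse in the model). The value of -0.12 (adjusted p = 0.617) came with the library totals in place of TMM. Gm20649, which overlaps the Onecut1 exons by 2171 bases on the same strand, had 0 counts in all 15 libraries. How reads in the shared bases were counted is not given.

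Prox1 (chr1:189850232-189904637, minus strand) was expressed at 155, 172, 240.0 and 149 CPM in 2n-whole and at 151, 159, 254 and 128 CPM in 4n-whole. It stood at 171, 178, 229 and 134 CPM in 4n-bottom and at 168, 260.4 and 124 CPM in 4n-top. Mouse 3 was above and mouse 4 below all libraries of the other mice. The log2 fold changes of the 4 comparisons lay between -0.07 and -0.01, and the 95% confidence intervals between -0.25 and 0.18. Prox1os, an antisense RNA that shares 976 exon bases, had counts of 5.67% to 18.3% of those of Prox1.

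Nr5a2 (chr1:136770303-136888186, minus strand) was expressed at 65.7, 77.2, 82.6 and 79.6 CPM in 2n-whole and at 77.0, 68.5, 90.0 and 82.3 CPM in 4n-whole. It stood at 78.7, 75.6, 90.3 and 75.2 CPM in 4n-bottom and at 68.0, 84.2 and 87.7 CPM in 4n-top. All libraries lay between 65.7 and 90.3 CPM, and no mouse stood apart. The log2 fold changes lay between -0.03 and 0.07, and the confidence intervals between -0.25 and 0.26.

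The spread between mice was set beside that between populations over mice 2, 3 and 4, which gave all 4 populations. For 8 of the 9 members the mouse means of log2 CPM spanned more than the population means, the exception being Cebpa (0.35 between mice, 0.54 between populations). Among 7372 genes with a mean log2 CPM of at least 3, the span between mice was the larger in 51.3%. The span between mice was 2.32 for Onecut1, 1.14 for Foxa3, 0.88 for Prox1 and 0.70 for both Hnf4a and Foxa2, against a median of 0.28 over those genes. The span between populations was 0.29 for Onecut1, 0.36 for Foxa3, 0.08 for Prox1, 0.13 for Hnf4a and 0.20 for Foxa2, against a median of 0.27. For Nr5a2 it was 0.01, at the percentile 0.0271 of those genes. A mouse is 1 animal, so these spans describe 3 animals and were not tested, and the animal and the preparation of its cells cannot be told apart.

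**Figure D4:**
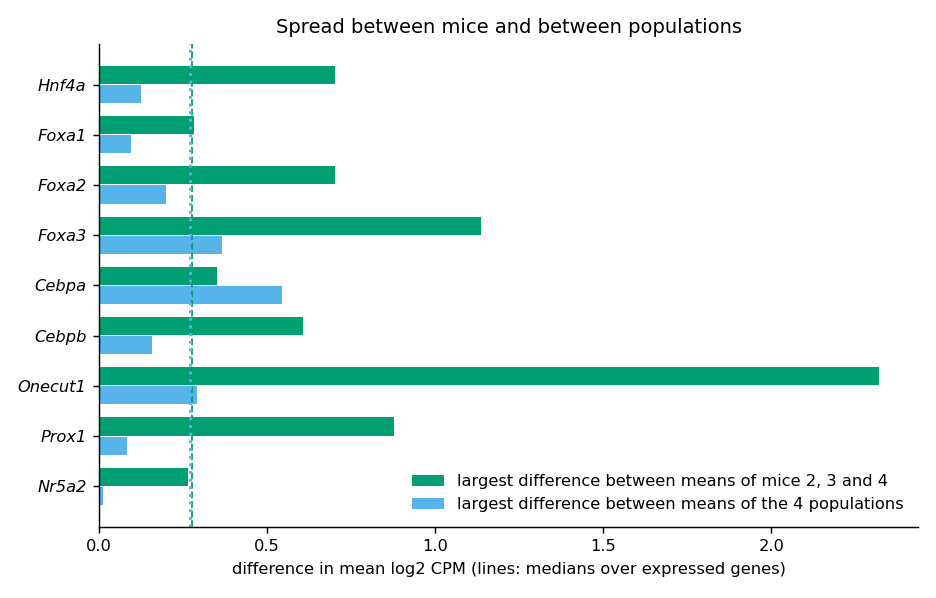
Largest difference between the mean log2 CPM of mice 2, 3 and 4 (green) and of the 4 populations (blue) for each member, with dashed and dotted lines at the medians of 0.28 and 0.27 over 7372 expressed genes. The bar between mice is the longer for 8 of 9 members, reaching 2.32 for Onecut1, and the reverse holds for Cebpa.

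In mouse 3, 4 members stood apart from all libraries of the other mice, in both directions. Onecut1 was lower, by 4.12-fold in mean log2 CPM, and Hnf4a, Foxa3 and Prox1 were higher, by 1.67-fold, 1.76-fold and 1.61-fold. Of the 7372 genes, 6.55% stood apart in mouse 3, 6.02% in mouse 1, 2.79% in mouse 2 and 2.43% in mouse 4. Onecut1 had the second lowest difference of mouse 3 to the other mice among these genes, while Foxa3 was at place 64, Hnf4a at 93 and Prox1 at 117 from the top. Mouse 1 had 2 members apart, Hnf4a and Cebpa, both lower, mouse 2 had 1, Cebpb, lower, and mouse 4 had 2, Foxa2, higher, and Prox1, lower. Since the mouse was a block in the edgeR model, these differences between animals did not enter its fold changes and tests. They did enter the overlap of libraries and the unpaired tests of the ratio of Cebpa to Cebpb.

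After the mean of each mouse was subtracted, Cebpa and Hnf4a varied together over the 15 libraries (Pearson r = 0.83), as did Foxa2 and Cebpb (r = 0.82), and Onecut1 ran opposite to Foxa2 (r = -0.74). The other 33 pairs of members had r between -0.59 and 0.50. These are descriptions, since all genes share the libraries and their depth. Over the same libraries, among the 3 genes most like each member, those for Cebpa were Ftl1 (r = 0.98), Skic2 (0.98) and Lrp1 (0.97), and those most like Hnf4a were Mtarc1 (0.92), Ppp1r10 (0.91) and Tkfc (0.91). For Onecut1 they were Dst (0.92) and Prob1 (0.87), for Prox1 Armt1 (0.90), Agpat2 (0.89) and Zfp281 (0.87), and for Nr5a2 Gm16559 (0.81), Angel2 (0.81) and Fgd6 (0.78). For Foxa1 they were Aldoa (0.88), Saa1 (0.82) and Sdsl (0.81), for Foxa2 Son (0.87) and Mgll (0.86), for Foxa3 Txnrd2 (0.86), Ndufs3 (0.86) and Cox5b (0.85), and for Cebpb Mgll (0.92), Cpn1 (0.89) and Nadk (0.86).

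Other transcription factors of the liver were followed in the same fit. Of 36 listed, 34 were tested, and 5 of them (14.7%) were DEGs in 4n-whole against 2n-whole, 4 higher and 1 lower. Tbx3, a T-box repressor that is also on the pericentral list, rose from 3.80 ± 1.57 to 15.7 ± 5.03 CPM (SD, n = 4 each), or by 2.07 on the log2 scale (adjusted p = 4.5e-07, edgeR). Nr1i3, the xenobiotic receptor CAR, rose from 9.05 ± 6.42 to 23.8 ± 12.6 CPM (1.53, adjusted p = 6.7e-07), and Ahr, the dioxin receptor, from 14.3 ± 6.18 to 27.3 ± 8.29 CPM (0.98, adjusted p = 3.0e-04). Nr2f6, an orphan nuclear receptor, rose by 0.54 on the log2 scale (adjusted p = 0.0237), and Rora, an orphan nuclear receptor tied to the circadian clock, fell by 0.56 (adjusted p = 0.0014). In the 13 alternatives Tbx3 stayed a DEG in 13, Nr1i3 and Ahr in 12, Rora in 8 and Nr2f6 in 7, each with its sign kept.

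Tbx3 and Nr1i3 were also DEGs higher in 4n-bottom (1.42 and 0.88, adjusted p = 4.2e-04 and 0.0052, edgeR) and in 4n-top (2.08 and 1.16, adjusted p = 2.6e-06 and 1.6e-04) against 2n-whole, and Ahr in 4n-top (0.82, adjusted p = 0.0087). In 4n-top against 4n-bottom 0 of the 34 were DEGs by edgeR. The 3 comparisons share their 2n-whole libraries. Of the C/EBP relatives and the related PAR zipper factors, 0 of 8 tested were DEGs in any comparison. The smallest p among them in 4n-whole against 2n-whole was that of Nfil3, a repressor, at a log2 difference of 0.37 (adjusted p = 0.0247, edgeR), followed by Cebpe (0.47, adjusted p = 0.211) and Cebpd (0.28, adjusted p = 0.375).

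**Figure D5:**
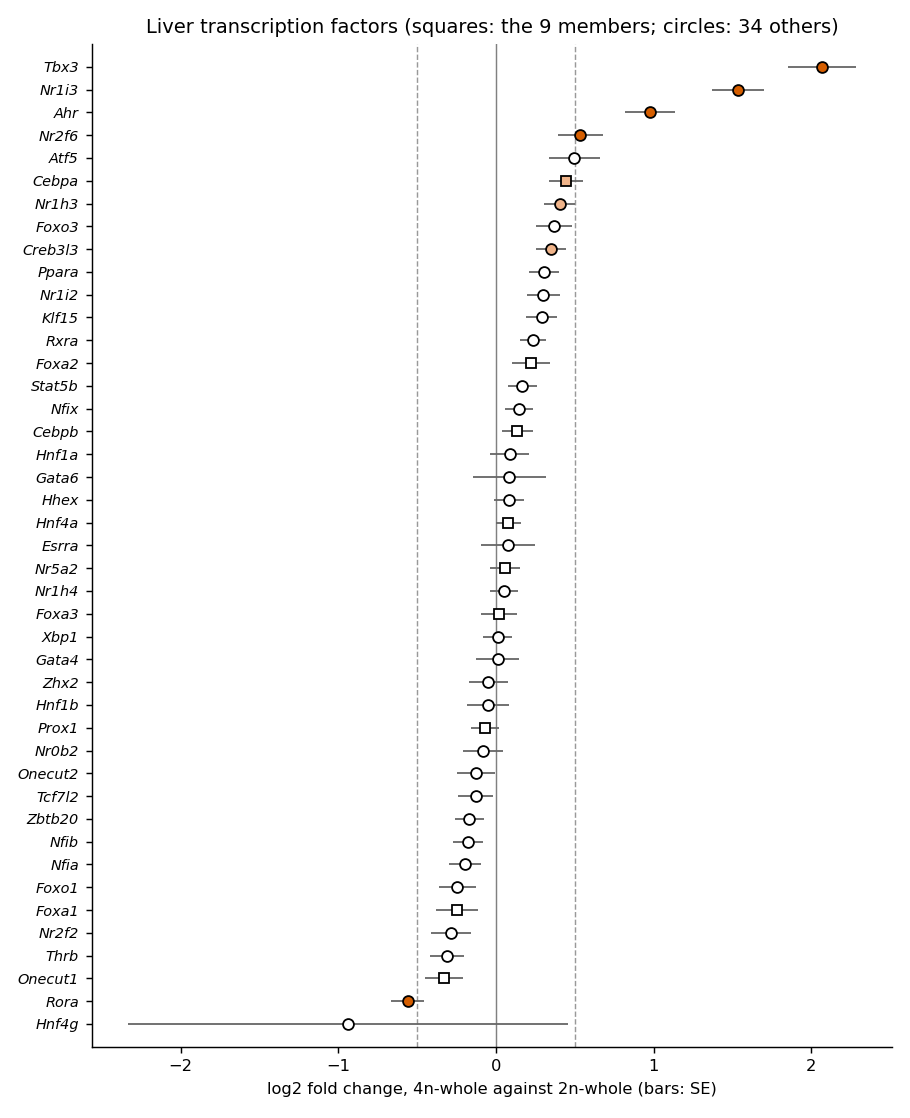
Log2 fold change in 4n-whole against 2n-whole (horizontal axis, bars are the standard error) of the 9 members (squares) and 34 other liver transcription factors (circles), ordered by value. Dark fill marks DEGs and light fill an adjusted p under 0.05 with a log2 fold change within the dashed limits of 0.5; Tbx3 (2.07), Nr1i3 (1.53) and Ahr (0.98) lie farthest to the right, and the members lie between -0.33 and 0.45.

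Genes known to be bound and activated by the members were compared as lists. These were chosen from textbook knowledge, but with earlier results of these data known. Of 20 HNF4A targets, 5 were DEGs in 4n-whole against 2n-whole. Cyp7a1, the rate-limiting enzyme of bile acid synthesis, and Cyp8b1, which sets the composition of the bile acids, were higher (log2 fold changes 1.54 and 0.81, adjusted p = 4.8e-06 and 9.9e-07, edgeR). Apoa4, an apolipoprotein, F9, a clotting factor, and Otc, an enzyme of the urea cycle, were lower (-1.37, -0.60 and -0.58, adjusted p = 7.1e-08, 0.0044 and 0.0051). The median over the list was -0.02, beside -0.01 over all tested genes. Of 9 NR5A2 targets, 3 were DEGs, Cyp7a1 and Cyp8b1 again among them, all higher, and the list's median was 0.12. Nr5a2 and Hnf4a themselves differed by 0.06 and 0.08 in the same comparison.

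Of 10 FOXA targets, 1 was a DEG, Igfbp1, a binding protein of insulin-like growth factors, which was higher (0.80, adjusted p = 2.2e-05, edgeR), and of 11 C/EBPα targets 1, F9, which was lower. Among 12 acute phase genes tied to C/EBPβ, 2 were DEGs, Orm1 and Lcn2, both lower (-0.52 and -1.49, adjusted p = 0.0038 and 0.0388, edgeR). F9 and Lcn2 kept their direction in all 13 alternatives and were DEGs in 7. The medians of these 3 lists were -0.06, -0.04 and -0.14. The list of fetal and progenitor genes, 8 of 13 tested, had 3 DEGs, all lower in 4n-whole. They were Sox9 (-0.62, adjusted p = 0.0023, edgeR) and Spp1 (-2.81, adjusted p = 2.0e-05), both also biliary markers, and Sox4, which was at 0 in all 4n-whole libraries and at most 1.44 CPM in 2n-whole. Of the 10 hepatocyte markers 0 were DEGs in any comparison. Those with the smallest p were Alb (-0.23, adjusted p = 0.0575), Apoa1 (0.21, adjusted p = 0.0967) and Ahsg (-0.23, adjusted p = 0.103, all edgeR).

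In 4n-bottom and 4n-top against 2n-whole, where 0.463% and 0.961% of all genes were DEGs beside 3.47% in 4n-whole, fewer targets were DEGs, a difference that was not tested. Apoa4 was lower (-0.69 and -1.10, adjusted p = 0.0031 and 1.4e-05, edgeR) and Cyp8b1 higher (0.59 and 0.89, adjusted p = 4.5e-04 and 2.6e-06) in both, while Cyp7a1 (1.48, adjusted p = 2.8e-05) and Igfbp1 (0.65, adjusted p = 0.0017) were higher in 4n-top. In 4n-top against 4n-bottom 0 targets of any list were DEGs by edgeR, as were 0 members. The log2 fold changes of the members there lay between -0.07 (Onecut1) and 0.13 (Foxa3), and the 95% confidence intervals of all 9 lay between -0.34 and 0.38. These values are for the sorted fractions, neither of which is pure, and do not bound the difference between mononucleated and binucleated cells. The study holds that the limited purity of 4n-top likely made the differences it saw smaller.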

How the data were processed

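RNA of sorted mouse hepatocytes was sequenced in 15 libraries, of 4 mice. Per the labels and the study's methods, the authors aligned reads with STAR 2.7.11a to GRCm39 and made the deposited gene counts with featureCounts (Subread). The strand setting of the counting is not given in the sources used here. The raw counts were used as deposited, and libraries were grouped by the labels.

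Counts were analysed in R 4.3.3 with edgeR 4.0.16. The filter on low counts (filterByExpr) was set to 10 counts in a library and 15 in all, normalization was by TMM, and the quasi-likelihood model held population and mouse. The Benjamini-Hochberg adjustment covered all 17488 tested genes. A gene was called with an adjusted p below 0.05 and a log2 fold change beyond 0.5. Log2 CPM used a prior count of 2. DESeq2 1.42.0 and ComBat-seq (sva 3.50.0) were alternatives, with other scaling, filters, libraries left out and corrections for GC content and length, some chosen after seeing the data. The script was tested on simulated data. The members and lists were chosen with earlier results of these data known.

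The labels give the animal of each library, so libraries of 1 mouse are paired. Deviations from the population means correlated within mice in 21 pairs (mean r = 0.158, range 0.0845 to 0.227). The text names all members, genes of the other lists that were called or had the smallest p, and the 3 genes most like each member, except a few genes that are not reported here.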

Additional observations from a re-analysis of the deposited data

Results flagged for a closer look

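Foxa1 in 4n-bottom was expressed at 18.9 CPM in mouse 1, far below the next library of that population at 24.6 CPM. The gap was 0.947 of the range of the 4 libraries, more than Dixon's critical value for that number. This was 1 of 30 groups of libraries examined, and chance alone flags about 1 in 20. The 3 libraries of 4n-top were too few for this rule.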

How the results depend on the processing

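The number of members called in 4n-whole against 2n-whole was 0, and 1 (Cebpa) with library totals without TMM or with no limit on the fold change. It was 0 to 1 when a mouse was left out. In the test of the 4 populations it was 1 with no filter on low counts, and 1 with DESeq2 with the replicate block. It was 2 (Foxa2 and Cebpa) with library totals, and 0 to 1 without a mouse. Over all genes, that test called 341 of 17488 as reported and 787 of 39304 with no filter. It called 644 of 17488 with DESeq2 and 1090 of 17488 with library totals. Without a mouse it called from 151 of 18791 (mouse 4) to 585 of 18529 (mouse 3). With no replicate block the number of members called was 0 in each comparison. The genes called in 4n-whole against 2n-whole then fell from 607 to 40, both of 17488. In that comparison library totals called 1509 of 17488, and ComBat-seq then DESeq2, with no filter on low counts, called 1160 of 39304. The fits without a mouse called from 244 of 18791 (mouse 4) to 1025 of 18529 (mouse 3). Pairing by mouse, as the replicate block, turned the ratio of Cebpa to Cebpb in 4n-top against 4n-bottom to -0.0288, and without a mouse it ran from -0.0288 to 0.355.

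Of 468 fold changes of members, 36 changed sign, all with a reported value within 0.14 of 0, and the cause was not tested. With GC content and length corrected, Hnf4a was -0.011 in 4n-whole and -0.010 in 4n-top against 2n-whole, and -0.015 in 4n-top against 4n-bottom. Foxa3 was -0.11 and Cebpb -0.070 in 4n-whole, and Cebpb -0.029 in 4n-bottom. Prox1 was 0.0040, 0.041 and 0.0076 in 4n-whole, 4n-bottom and 4n-top against 2n-whole. With no replicate block, Foxa1 was 0.041 and Prox1 0.042 in 4n-top against 2n-whole, and Prox1 0.048 against 4n-bottom. With the compared populations only, Foxa1 was 0.0086 and Nr5a2 -0.019 in 4n-top against 2n-whole. With library totals, Foxa1 was 0.094 in 4n-top, and Prox1 0.14, 0.12 and 0.13 in 4n-whole, 4n-bottom and 4n-top against 2n-whole. In 4n-top against 4n-bottom Prox1 was 0.015 and Nr5a2 0.013. Without the 4n-whole library of mouse 2, Foxa3 was -0.035 in 4n-whole.

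Leaving out a mouse gave these ranges in 4n-top against 4n-bottom: Hnf4a -0.040 to 0.029, Foxa2 -0.010 to 0.15, Onecut1 -0.13 to 0.025, Prox1 -0.13 to 0.0082 and Nr5a2 -0.15 to 0.020. In 4n-top against 2n-whole they were -0.0084 to 0.098 for Hnf4a, -0.13 to 0.017 for Foxa1, -0.11 to 0.043 for Prox1 and -0.042 to 0.11 for Nr5a2. In 4n-whole against 2n-whole they were -0.056 to 0.10 for Foxa3 and -0.0023 to 0.13 for Nr5a2, and in 4n-bottom -0.060 to 0.035 for Prox1.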

Other observations

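Besides Onecut1, other genes set the 4 libraries of mouse 3 apart from the 11 of the other mice, and they were picked after their values were seen. Per1, a clock gene, was at 53.5 to 70.1 CPM in mouse 3 and 3.99 to 16.37 CPM in the others. Fkbp5, a chaperone induced by glucocorticoids, was at 118 to 147 CPM against 14.9 to 38.8 CPM, and the metallothionein Mt1 at 265 to 358 CPM against 32.3 to 107 CPM. Map3k13, a kinase, was lower, at 7.17 to 15.41 CPM against 21.9 to 66.8 CPM. These are values of 1 animal, and no test was made.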
